A study of Mus musculus with 16 samples.

Results

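Small nucleolar RNA genes were followed across 16 mouse prostate tumours from 4 treatment groups. They were taken as every gene in the deposited count table whose ID maps to a symbol starting with Snord, Snora or Scarna. Each also held at least 40 counts summed over the 16 libraries. The rule gave 46 genes (27 Snord, 14 Snora and 5 Scarna) of 113 with such symbols in the table and of 55414 gene IDs in all. Of the other 67, 15 held between 1 and 39 counts and 52 held none. The genes were chosen by their summed count over all libraries, which is therefore only described. The 5 genes just inside the threshold were Snord87 with 77 counts, Snord65 with 50, Snord7 with 49, Snora2b with 48 and Snord11 with 43. The 5 just outside were Snord37 with 32, Snord42b with 29, Snord23 with 26, Snord35a with 23 and Snord111 with 20.

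B6MyC-CaP cells were implanted subcutaneously in C57BL/6 males at 6 weeks of age. They are 1 cell line, derived from the Hi-MYC mouse, an animal in which a MYC transgene is driven by a probasin promoter active in prostate epithelium, so every group carries that transgene and every tumour comes from the same line. Each group has 4 tumours. Vehicle mice had normal chow at all times. ENZ mice had the same chow and enzalutamide, an antiandrogen drug, at 20 mg/kg once daily by gavage. In the ADF group 24 h of fasting alternated with 24 h of free feeding, and the ADF+ENZ group had both treatments. When in the fasting cycle the tumours were collected is not stated in the labels. They also do not say that the 4 tumours of a group came from 4 mice, so the p-values below measure only the spread between these samples.

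Small nucleolar RNAs work as guides inside protein complexes. Box C/D RNAs (symbol Snord) carry the enzyme fibrillarin to a target base and direct methylation of its ribose. Box H/ACA RNAs (symbol Snora) direct the change of uridine to pseudouridine with dyskerin, and the small Cajal body RNAs (symbol Scarna) do the same kind of work on the RNAs of the spliceosome. Most targets of the first 2 classes lie in ribosomal RNA. A few members do other work: Snord118 (U8) takes part in processing the ribosomal precursor, and Snord13 (U13) pairs with 18S ribosomal RNA and is needed for acetylation of a cytidine there. In mammals most of these RNAs lie in introns of host genes, often genes of ribosomal proteins or of ribosome assembly, and are trimmed out of the spliced intron; a few, such as Snord118, Snord13 and Scarna2, have a promoter of their own.

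The sequences below are those on which the results turn, shown so that their lengths and boxes can be compared. They are the annotated RNA sequences of GENCODE M21 (mouse build GRCm38, found by transcript ID), 5′ to 3′, written with T. Capitals mark the first TGATGA (box C) and the last CTGA (box D) in Snord and Scarna genes, and the ACA that ends 3 bases before the 3′ end in Snora genes. The first 3 are long members that were lower in ADF, Snord118 is the ribosomal processing RNA U8, and Snord104 is a short member that was higher with enzalutamide.
Snord17: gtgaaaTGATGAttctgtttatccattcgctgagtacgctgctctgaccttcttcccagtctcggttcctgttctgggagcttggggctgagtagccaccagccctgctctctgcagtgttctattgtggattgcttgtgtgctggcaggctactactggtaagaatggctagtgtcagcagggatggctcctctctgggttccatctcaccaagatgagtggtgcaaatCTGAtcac
Scarna6: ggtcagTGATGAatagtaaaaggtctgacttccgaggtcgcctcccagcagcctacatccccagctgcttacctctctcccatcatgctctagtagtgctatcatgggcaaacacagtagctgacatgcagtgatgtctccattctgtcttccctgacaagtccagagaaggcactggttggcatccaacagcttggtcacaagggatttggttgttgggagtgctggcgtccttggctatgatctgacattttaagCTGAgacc
Snora23: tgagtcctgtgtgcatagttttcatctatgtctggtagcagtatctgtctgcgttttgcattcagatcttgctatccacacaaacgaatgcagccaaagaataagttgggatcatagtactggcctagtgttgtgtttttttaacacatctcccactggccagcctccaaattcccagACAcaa
Snord118: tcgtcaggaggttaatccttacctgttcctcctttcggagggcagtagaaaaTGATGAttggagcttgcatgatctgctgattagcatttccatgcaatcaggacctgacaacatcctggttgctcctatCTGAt
Snord104: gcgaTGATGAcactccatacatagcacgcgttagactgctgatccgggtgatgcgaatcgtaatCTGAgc

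Only these letters, on the RNA strand, were searched for over the whole annotated RNA. Of the 27 Snord members, 21 held TGATGA and all 27 held CTGA. Of the 14 Snora members, 12 held ACA at that place, 8 held CTGA and 0 held TGATGA. Of the 5 Scarna members, 5 held TGATGA, 4 held CTGA and 1 held ACA at that place. In the last 106 bases of 58733 protein-coding transcripts of the same annotation, a window of the members' median length, TGATGA was found in 4.06%, CTGA in 43.5% and ACA at that place in 2.37%. A match is a description of the letters only.

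The 46 genes are 65 to 414 nt long, with a median of 106 nt. In the same annotation 39 of them lie within a host gene on the same strand, 31 within a protein-coding gene and 8 within another kind of gene. The 7 with no host there are Scarna2, Snord118, Snora57, Snord104, Snora17, Scarna17 and Snord13. Here and below, no host means only that this annotation holds no such gene span. Whether these 7 have promoters of their own was not tested. The hosts include genes of ribosomal proteins (Rps3 for Snord15a, Rpl23 for Snora21, Rpl39 for Snora69, Rpl13a for Snord32a and Rpl3 for Snord43 and Snord83b) and Nop58, a core protein of box C/D particles, for Snord70 and Snord11. The other hosts named here are Snx5, a sorting nexin, for Snord17, Atg16l1, an autophagy gene, for Scarna6, and Ipo7, a nuclear import receptor, for Snora23. Snora15 and Snora2b overlap an exon of their hosts Cct6a and Kansl2. The sources used here do not give how reads in overlapping genes were assigned or whether strand was used. Reads from the mature small RNA, from an unspliced host transcript and, for the 4 members that lie opposite another gene (Snora23, Snora57, Snora78 and Snord8), from the other strand cannot be told apart.

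The 46 genes held 60395 counts in the 16 libraries. Snord17 alone held 37.4% of them, and the 6 genes with the most counts held 80.6%. Levels are given as CPM, counts scaled to equal library size with edgeR's TMM factors. Per kilobase of annotated length, and over all 16 libraries, the order from the top was Snord17 (387 CPM per kb), Scarna2 (110.0), Snord118 (108), Snord104 (90.4), Snora23 (84.1), Scarna6 (74.8), Snord15a (60.7), Snora57 (45.0), Scarna17 (36.4) and Snora17 (26.4). Every library of Snord17 lay above every library of Scarna2, which guides methylation of the U2 spliceosomal RNA. From Scarna2 down, each gene overlapped the next in this order. A low-count filter left 32 of the 46 for testing. The 14 not tested were Snord73a, Snord58b, Snord71, Snord89, Snord92, Snord87, Snord8, Scarna8, Snord65, Snora62, Snora20, Snord7, Snord11 and Snora2b, with 43 to 113 counts each. Snord32a passed the filter only through ENZ and ADF+ENZ, the groups where it was high, so its calls in edgeR's test depend on that filter and its values are given as a description, and Snord98 passed only through Vehicle and ADF.

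Gene counts per library ran from 10072489 to 25505655. In the ADF libraries 30.3% to 36.7% of reads fell in no annotated feature, and the other groups ran from 21.2% (ADF+ENZ) to 27.9% (Vehicle and ENZ). Multiply aligned reads made up 4.10% to 5.03% in ADF, against 7.16% to 7.84% in Vehicle, and ambiguous reads 2.71% to 3.02%, against 3.76% to 4.44%. None of these ranges of ADF overlaps that of Vehicle. On the first principal component ADF+ENZ replicate 3, which has the fewest gene counts, stood at 27.8, and the other 15 libraries lay between -18.8 and 14.5. Of 6 epithelial and 6 prostate marker genes, 3 and 3 passed the filter; the keratin gene Krt8 was at 593.5 CPM in Vehicle, while Epcam was at 0.445 CPM and Pbsn, the probasin gene, had 0 counts in all libraries together. None of these 6 tested markers passed in any comparison. Of the markers of other cell types, 6 passed in some comparison by edgeR, given with their log2 changes. The macrophage gene Cd68 was lower in ENZ (-0.48) and ADF (-0.44) than in Vehicle and Adgre1 lower in ADF+ENZ (-0.63), the endothelial genes Tek (0.85) and Emcn (0.57) were higher in ENZ, and of the fibroblast genes Dcn was lower in ADF (-0.43) and Pdgfra higher in ADF+ENZ (0.61). Pdgfra was also higher in ADF+ENZ than in ENZ (0.72), and Cd68 had a higher interaction of the 2 treatments (0.68). Members of a list did not all move alike. In mean CPM from Vehicle to ADF, Col1a1 (1479 to 1873), Col1a2 (2035 to 2203), Pdgfra (456 to 572) and Lum (7.47 to 12.8) moved opposite to Dcn. Csf1r (268 to 290) and Mrc1 (102 to 128) moved opposite to Cd68, while Adgre1, C1qa and C1qb were lower. In ENZ the endothelial genes Pecam1 (97.2 to 96.2) and Cdh5 (160 to 157) were not higher. Summed macrophage markers ran from 958 to 1343 CPM in Vehicle, 924 to 1304 in ENZ, 947 to 1174 in ADF and 847 to 1156 in ADF+ENZ. Summed skeletal muscle markers ran from 0.972 to 20.8 CPM in Vehicle and 1.22 to 8.59 in ADF, and summed fibroblast markers from 7739 to 8593 CPM in Vehicle, 6641 to 8450 in ADF, 7392 to 8758 in ADF+ENZ and 6140.4 to 7015 in ENZ; their part in the results below was not tested. In bulk tumour RNA, fewer cells of a type and less RNA per cell cannot be told apart.

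Summed over the 46 genes, the level was lowest in ADF. The 4 Vehicle tumours stood at 228, 218, 247 and 233 CPM, the ENZ tumours at 365, 339, 261 and 262, the ADF tumours at 154, 133, 152 and 124, and the ADF+ENZ tumours at 251, 325, 381 and 233. All ADF tumours lay below all others, all ENZ tumours lay above all Vehicle tumours, and ADF+ENZ overlapped both Vehicle and ENZ. Without Snord17 the sums were 84.4 to 105 CPM in ADF, 139.6 to 147 in Vehicle, 151 to 208 in ADF+ENZ and 166 to 229 in ENZ, so that ADF again lay below the rest. The sums of the 39 genes with a host (80.9 to 97.9 CPM in ADF, 148 to 169 in Vehicle) and of the 7 without one (43.4 to 62.0 and 69.1 to 80.2) were each lower in ADF without overlap. The 23 genes with under 200 counts differed: they summed to 9.24 ± 0.472 CPM in Vehicle and 9.46 ± 0.533 in ADF (SD, n = 4), with overlapping ranges. Much of the sums of the 39 and of the 7 genes came from 1 gene each. Of a Vehicle mean of 74.0 CPM for the 7, Scarna2 held 46.7, and of 52.4 in ADF it held 31.4. Snord17 held 87.6 of 157 CPM for the 39 in Vehicle and 45.8 of 88.4 in ADF. By edgeR, 1 of the 7 without a host and 6 of the 25 tested with one were lower, beside 4.96% of all tested genes.

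**Figure D1:**
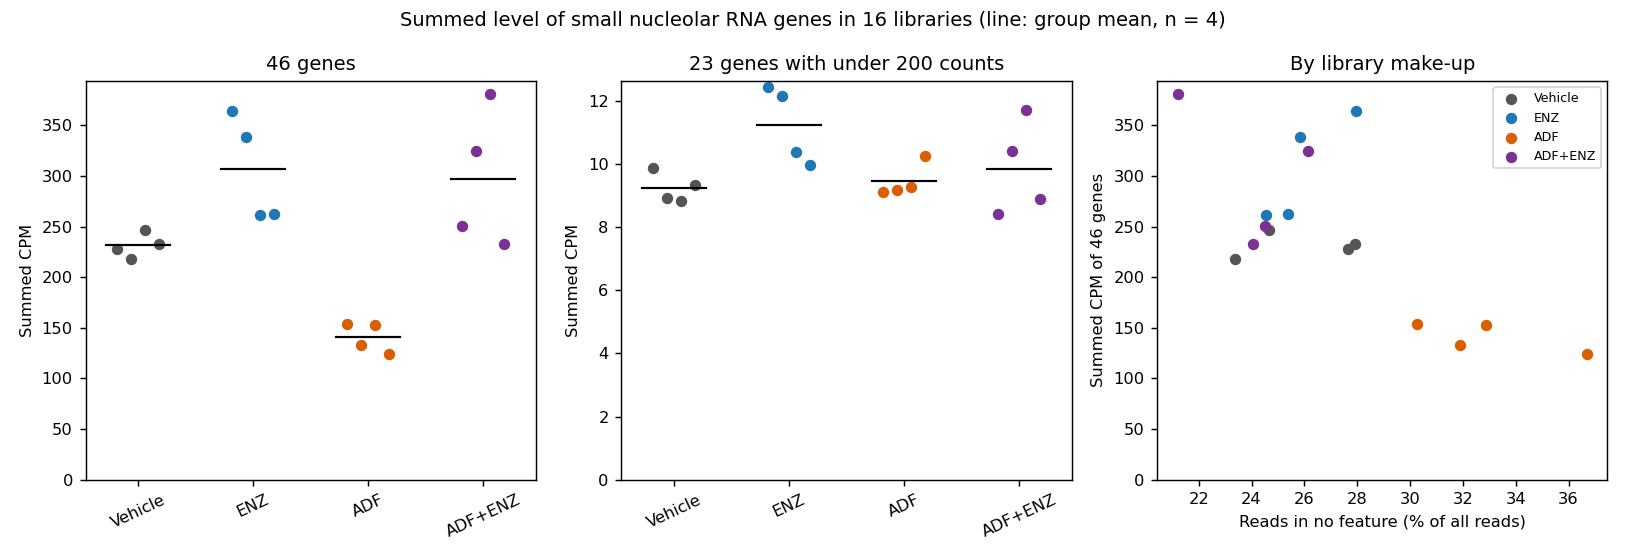
Summed CPM of all 46 small nucleolar RNA genes (left) and of the 23 with under 200 counts (middle) in each library, with a line at each group's mean (n = 4), and the sum of the 46 against the percentage of all reads that fell in no feature (right). The 4 ADF libraries (124 to 154 CPM) lie below the other 12 on the left and are the only ones above 30% on the right; in the middle ADF overlaps Vehicle.

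With fasting alone, 7 of the 32 tested genes were lower than in Vehicle and 0 were higher. Among all 18946 genes tested, 4.96% were lower and 4.05% higher in ADF than in Vehicle (edgeR, adjusted p under 0.05). At an unadjusted p under 0.05, 9 of the 32 were lower and 2 higher. The share of all genes at that unadjusted limit was not counted, here or below. Counts of members at that limit are therefore a description only. DESeq2 and limma-voom each called 9 of the 32 lower and 0 higher. Over all tested genes these tools called 1398 and 1238 lower and 960 and 1106 higher. The 7 were 3 H/ACA RNAs, 2 C/D RNAs and 2 of the 4 tested Cajal body RNAs: Snora23, Snora21, Snora69, Snord15a, Snord17, Scarna6 and Scarna2. The median log2 change was -0.23 over the 32 tested members and 0.01 over all tested genes. The other 25 did not pass, with changes from -1.05 for Snora41 to 1.30 for Snord55. On the untested scale of all 46 genes, the 4 ADF values lay below the 4 Vehicle values for 9 genes and above for 0, where 7.26% and 7.46% of all genes with at least 40 counts did so.

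Snord17, a long box C/D RNA, stood at 80.7, 77.3, 99.2 and 93.1 CPM in Vehicle and at 48.7, 42.8, 51.6 and 39.9 in ADF. The highest ADF tumour lay below the lowest Vehicle tumour. It fell 1.91-fold (log2 change -0.94, SE 0.21, edgeR adjusted p = 0.015). Scarna6, the Cajal body RNA in Atg16l1, stood at 19.0, 20.9, 23.4 and 18.7 CPM in Vehicle and at 10.3, 9.36, 12.6 and 9.32 in ADF. Again the groups were apart, and the fall was 1.98-fold (-0.98, SE 0.14, adjusted p = 0.00051). Scarna2 stood at 51.4, 41.0, 50.9 and 43.5 CPM in Vehicle and at 40.1, 28.3, 32.04 and 24.9 in ADF. Its groups were close, with ADF replicate 1 just under the lowest Vehicle tumour, and it fell 1.49-fold (-0.58, SE 0.14, adjusted p = 0.015). With ADF replicate 4 left out, the adjusted p was 0.059 for Scarna2 and 0.056 for Snord17, and with Vehicle replicate 3 left out it was 0.051 for Snord17. Scarna6 passed with each of the 16 libraries left out in turn.

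Snora23, an H/ACA RNA of the importin gene Ipo7, had the largest fall of those that passed. It stood at 15.5, 17.7, 18.1 and 19.6 CPM in Vehicle and at 5.12, 6.75, 9.05 and 5.73 in ADF, with no overlap, and fell 2.66-fold (-1.41, SE 0.20, edgeR adjusted p = 0.00062). Snord15a, a C/D RNA that guides methylation of 28S ribosomal RNA, stood at 8.38, 9.72, 6.22 and 8.45 CPM in Vehicle and at 3.92, 4.62, 4.09 and 2.94 in ADF. Its groups were apart as well, and it fell 2.10-fold (-1.07, SE 0.22, adjusted p = 0.0070). Both passed with any 1 library left out.

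The other 2 that passed are H/ACA RNAs of ribosomal protein genes at low counts. Snora21 stood at 2.14, 2.80, 2.03 and 2.21 CPM in Vehicle and at 1.12, 0.651, 1.10 and 1.08 in ADF, apart from each other (-1.23, SE 0.31, edgeR adjusted p = 0.021). Snora69 stood at 1.43, 1.2, 0.982 and 1.22 CPM in Vehicle and at 0.799, 0.474, 0.394 and 0.573 in ADF, also apart (-1.11, SE 0.31, adjusted p = 0.031). Of the 7, these 2 were lost most often. Snora21 did not pass without Vehicle replicate 2, ADF replicate 2 or ADF replicate 4 (adjusted p 0.055 to 0.065), and Snora69 did not pass without Vehicle replicate 1, 2 or 4 or ADF replicate 2, 3 or 4 (0.0501 to 0.083). The count of 7 ran from 3 to 9 over the 16 fits with 1 library left out, and was 3 without ADF replicate 4. The count over all genes, 940 lower with all libraries, ran from 378 (without ADF replicate 4) to 1051 (without ENZ replicate 1).

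Neither Snord118 nor Snord13 passed in ADF. Snord118 (U8), required for making the large subunit's ribosomal RNAs, stood at 12.3, 11.3, 11.5 and 8.62 CPM in Vehicle and at 5.60, 7.64, 6.53 and 4.09 in ADF. Its groups were apart, but its change did not pass (-0.86, SE 0.27, edgeR adjusted p = 0.054). Snord13 stood at 1.31, 1.09, 0.654 and 1.10 CPM in Vehicle and at 1.76, 1.30, 0.945 and 1.004 in ADF. These ranges overlapped (0.26, SE 0.30, adjusted p = 0.62). Among the other abundant members, the log2 change was -0.23 (SE 0.22) for Snora57, -0.28 (SE 0.16) for Snord104, -0.07 (SE 0.20) for Snora17 and 0.20 (SE 0.24) for Scarna17, and none of these passed.

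**Figure D2:**
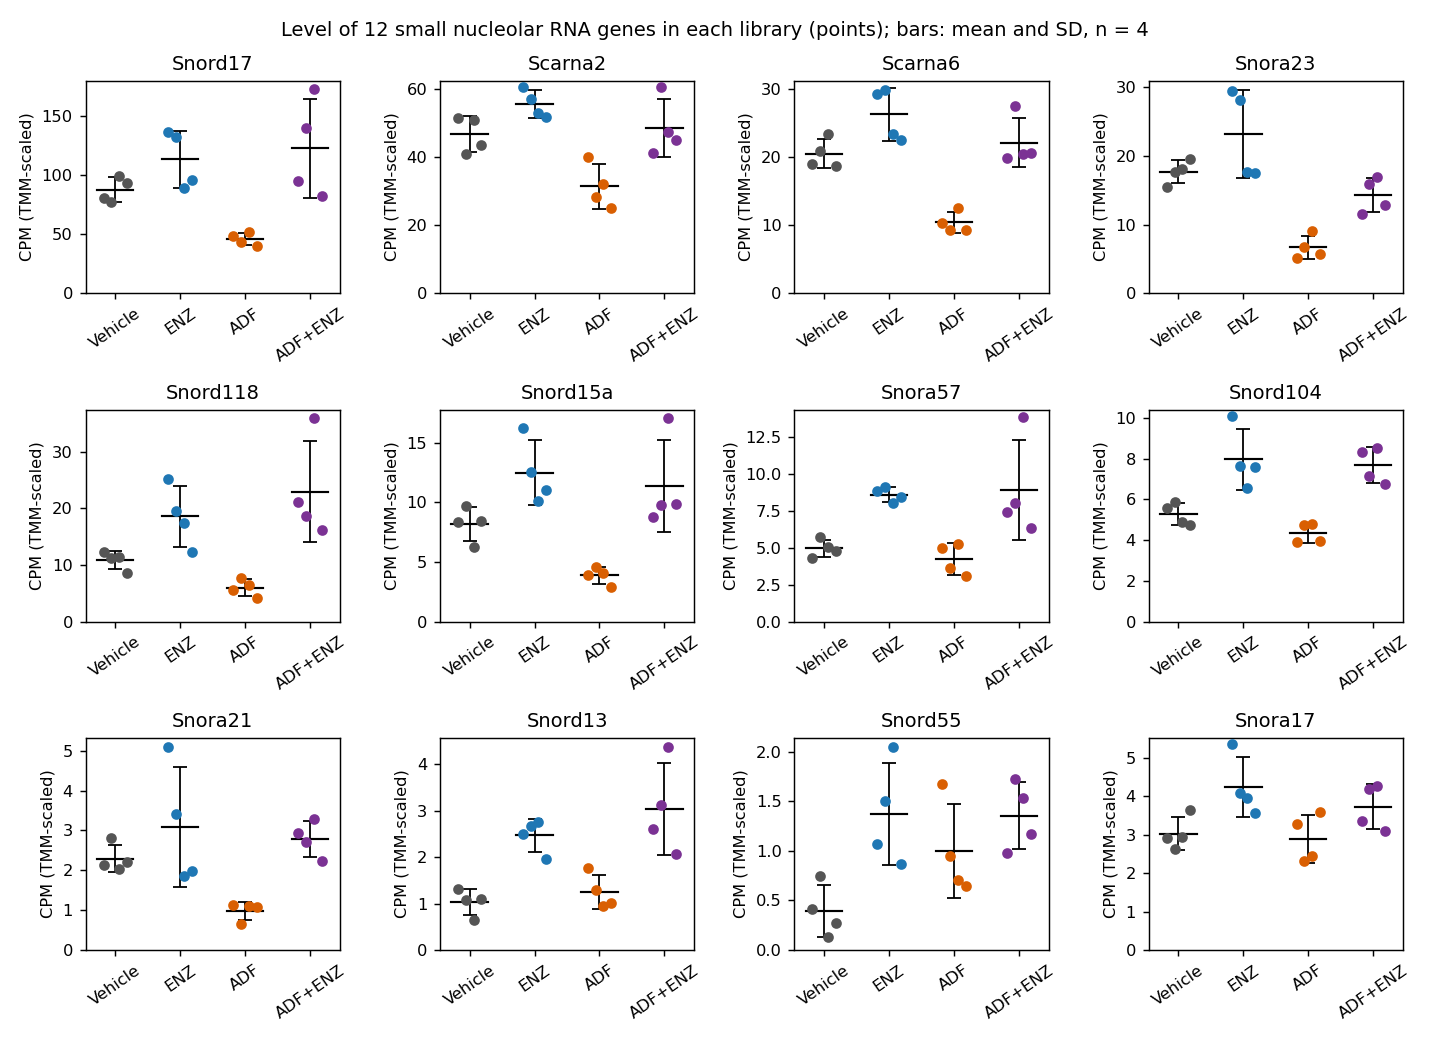
CPM of 12 small nucleolar RNA genes in each of the 16 libraries (points), with the mean and SD of each group (n = 4); each panel has its own linear axis from 0. Snord17, Scarna6, Snora23 and Snord15a show 4 ADF points below the 4 Vehicle and the 4 ADF+ENZ points, and Snora57 and Snord13 show ENZ and ADF+ENZ above Vehicle.

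The 7 genes that fell in ADF were among the longer ones. They are 131 to 414 nt, with a median of 184 nt, and the 25 that did not pass are 65 to 148 nt, with a median of 93 nt. Split at 120 nt, a value set after the data were seen and so given with no test, 7 of the 16 longer tested genes fell (median log2 change -0.72) and 0 of the 16 shorter ones did (median 0.00). Over the 32 tested genes, length and log2 change had Pearson's r of -0.48 and Spearman's rho of -0.57. These genes share their libraries and are not independent, and the longer ones also hold more counts (a median of 709 against 224), so length and depth cannot be told apart here. By class, 2 of 17 Snord, 3 of 11 Snora and 2 of 4 Scarna genes fell.

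**Figure D3:**
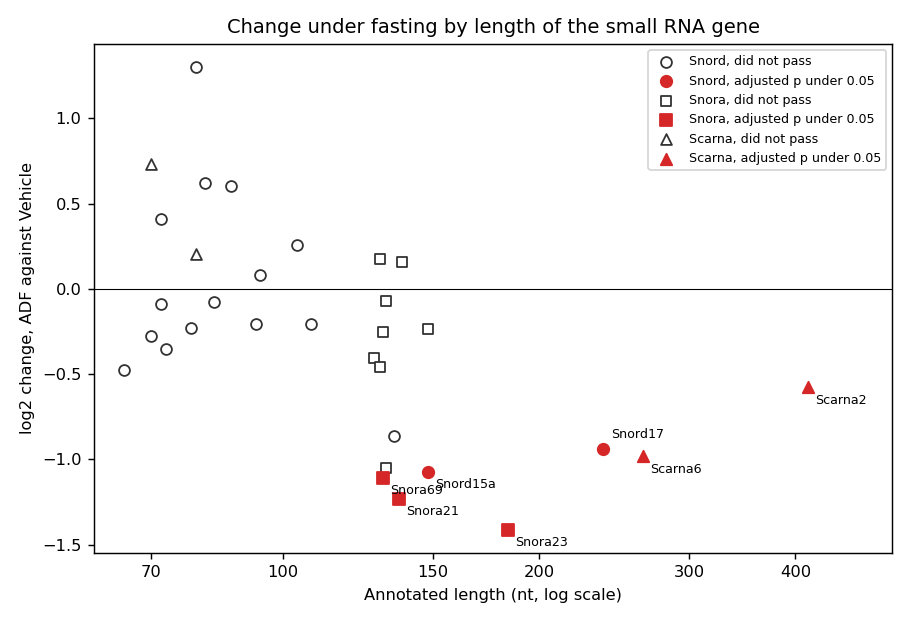
The log2 change in ADF against Vehicle of the 32 tested genes against annotated length in nt (log scale); circles are Snord, squares Snora and triangles Scarna, filled red where edgeR's adjusted p was under 0.05. All 7 red points lie at 131 nt or more and below 0.

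Of the 6 tested hosts of the small RNAs that fell, 1 fell as well and the other 5 did not pass. In ADF against Vehicle the log2 change was 0.01 (SE 0.08) for Snx5 beside -0.94 for Snord17, 0.15 (SE 0.09) for Atg16l1 beside -0.98 for Scarna6, and -0.19 (SE 0.09) for Ipo7 beside -1.41 for Snora23; none of these 3 hosts passed. Rpl23 changed by -0.16 (SE 0.09) and Rps3 by -0.35 (SE 0.11, edgeR adjusted p = 0.057), and neither passed. Rpl39, the host of Snora69, fell by 0.49 on the log2 scale (SE 0.12, adjusted p = 0.021). Snx5 was at 208 ± 21.8 CPM in Vehicle and at 209.6 ± 12.6 in ADF (SD, n = 4).

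Taken as the log2 ratio of small RNA to host, with 0.1 CPM added to each, Snord17 stood at -1.25 ± 0.08 in Vehicle (SD, n = 4), -2.20 ± 0.14 in ADF, -0.85 ± 0.45 in ADF+ENZ and -1.01 ± 0.36 in ENZ. Its 4 ADF ratios lay below all Vehicle ratios and below all ADF+ENZ ratios. The ratio of Scarna6 to Atg16l1 stood at -1.33 ± 0.19, -2.46 ± 0.25, -1.29 ± 0.18 and -1.08 ± 0.17 in the same order, with ADF again apart. Among 25 tested members with a tested host, ADF lay below Vehicle without overlap for 5 (Snord17, Scarna6, Snora23, Snora21 and Snora41) and above it for 1. ADF+ENZ lay above ADF for 6 (the first 4 with Snord15a and Snora69) and below it for 0. Such a ratio exists only for these pairs, so there is no share over all genes to set beside these counts. Over those 25, the log2 changes of small RNA and host in ADF against Vehicle had Pearson's r of 0.30 and Spearman's rho of 0.28, given as a description because several members share a host and all share libraries.

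**Figure D4:**
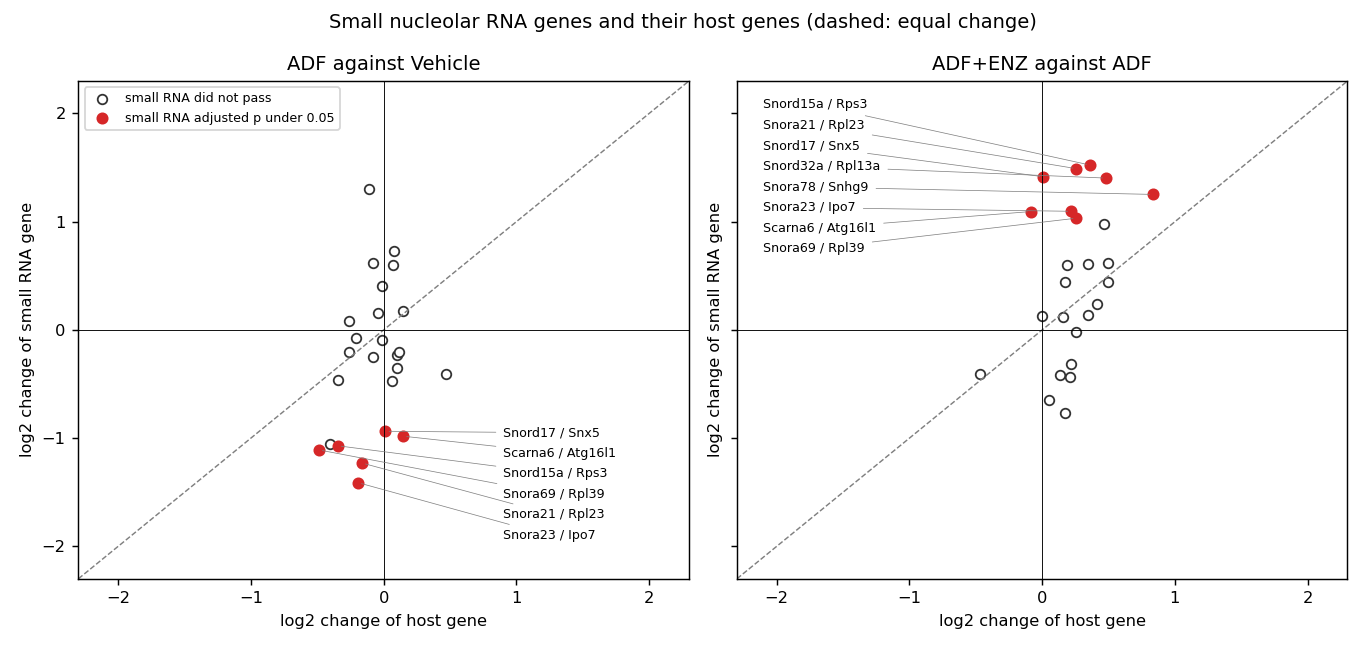
The log2 change of each tested small RNA gene (vertical axis) against that of its host gene (horizontal axis) for 25 pairs, in ADF against Vehicle (left) and ADF+ENZ against ADF (right); red points passed for the small RNA and carry both names, and the dashed line marks equal change. On the left the 6 red points lie between -0.94 and -1.41 while their hosts lie between -0.49 and 0.15; on the right the 8 red points lie between 1.03 and 1.52.

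The share of reads in no feature moved with the ADF group, as given above. With it as a covariate, 0 of the 7 genes passed in ADF against Vehicle, although their log2 changes stayed between -0.52 (Scarna2) and -1.63 (Snora69). The same fit called 1 gene higher and 5 lower among all 18946, so the fasting group and this make-up of the libraries cannot be told apart.

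With enzalutamide alone, 5 of the 32 tested genes were higher than in Vehicle and 0 were lower. Among all tested genes, 1.81% were higher and 3.62% lower in ENZ than in Vehicle. At an unadjusted p under 0.05, 12 of the 32 were higher and 0 lower. DESeq2 called 4 of the 32 higher and limma-voom 5, and both called 0 lower. Over all tested genes these tools called 551 and 664 higher and 1043 and 991 lower. The 5 were Snord55, Snord32a, Snord13, Snora57 and Snord104, or 4 of 31 (median 0.38) without Snord32a, and the median log2 change over the 32 was 0.39, against 0.01 over all tested genes. Over all 46 genes, the ENZ values lay above the Vehicle values without overlap for 9 and below for 0, beside 4.97% and 5.81% of all genes with at least 40 counts.

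Snora57, an H/ACA RNA with no host, stood at 4.28, 5.72, 5.04 and 4.75 CPM in Vehicle and at 8.86, 9.08, 7.99 and 8.43 in ENZ. All ENZ tumours lay above all Vehicle tumours, a 1.73-fold rise (0.79, SE 0.21, edgeR adjusted p = 0.034). Snord13 stood at 1.31, 1.09, 0.654 and 1.10 CPM in Vehicle and at 2.51, 2.66, 2.76 and 1.95 in ENZ, apart, and rose 2.34-fold (1.23, SE 0.28, adjusted p = 0.014). Snord104, a short C/D RNA with no host, stood at 5.59, 5.89, 4.91 and 4.75 CPM in Vehicle and at 10.1, 7.64, 6.55 and 7.60 in ENZ, apart, and rose 1.5-fold (0.59, SE 0.15, adjusted p = 0.032). These 3 are among the 7 genes with no host span.

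The remaining 2 have hosts and few counts. Snord55 stood at 0.416, 0.743, 0.131 and 0.276 CPM in Vehicle, or 2 to 13 counts, and at 1.07, 1.501, 2.04 and 0.872 in ENZ (1.76, SE 0.43, edgeR adjusted p = 0.020). Snord32a stood at 0.238, 0.114, 0.262 and 0.221 CPM in Vehicle, or 2 to 4 counts, and at 0.716, 0.546, 0.721 and 0.457 in ENZ; no Vehicle library reached the filter's level. Its host Rpl13a rose, by 0.70 (SE 0.11, adjusted p = 0.0011).

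The enzalutamide count rested on single libraries. With 1 library left out it ran from 0 (without Vehicle replicate 3) to 7. It was 1 without Vehicle replicate 4 or ENZ replicate 3, and 2 without Vehicle replicate 1 or ENZ replicate 1, 2 or 4. The count over all genes moved too. Its 342 called higher became 107 without Vehicle replicate 3, 190 without Vehicle replicate 4 and 99 without ENZ replicate 3, but 454 without ENZ replicate 1. Snord13 was lost only without Vehicle replicate 3 or ENZ replicate 3 (edgeR adjusted p 0.056 and 0.052), Snord55 without those or Vehicle replicate 4 (0.061 to 0.093), Snora57 in 7 of the 16 fits (0.051 to 0.084), Snord104 in 6 (0.051 to 0.099) and Snord32a in 11.

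Within ENZ, 3 of the 4 best-counted members with a host split the tumours. ENZ replicates 1 and 2 stood at 136 and 132 CPM for Snord17, and replicates 3 and 4 at 88.6 and 95.8. For Snora23 the same 4 tumours stood at 29.4, 28.2, 17.7 and 17.6 CPM, and for Scarna6 at 29.3, 29.9, 23.4 and 22.5. Replicates 3 and 4 lay within the Vehicle range for Snord17 and Snora23; for Scarna6 replicate 4 did, and replicate 3 was level with the highest Vehicle tumour. The changes did not pass in edgeR's test for Snord17 (0.37, SE 0.20), Snora23 (0.38, SE 0.19) or Scarna6 (0.36, SE 0.13, adjusted p = 0.13). The fourth, Snord15a, stood at 16.3, 12.6, 10.2 and 11.05 CPM, all above the highest Vehicle tumour at 9.72, and did not pass (0.60, SE 0.21, edgeR adjusted p = 0.093). In Snora21, at 5.10, 3.41, 1.86 and 1.99 CPM, replicates 1 and 2 lay above all Vehicle tumours (2.03 to 2.80) and replicates 3 and 4 below them (0.39, SE 0.28). Snord118 spread more evenly, at 25.1, 19.5, 17.3 and 12.3 CPM, and did not pass either (0.76, SE 0.25, adjusted p = 0.092). ENZ replicates 1 and 2 had the fewest gene counts of their group, 10630096 and 14457374; the part of depth was not tested.

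With fasting and enzalutamide together, 8 of the 32 tested genes were higher than in Vehicle and 0 were lower. Among all tested genes, 5.97% were higher and 6.53% lower. At an unadjusted p under 0.05, 11 of the 32 were higher and 0 lower. DESeq2 called 6 of the 32 higher and limma-voom 7, and both called 0 lower. Over all tested genes these tools called 1353 and 1159 higher and 1499 and 1241 lower. The 8 were Snord55, Snord13, Snord32a, Snord118, Snord49a, Snora57, Scarna17 and Snord104, or 7 of 31 (median 0.22) without Snord32a. The median log2 change was 0.24, against 0.00 over all tested genes. Over all 46 genes the ADF+ENZ values lay above the Vehicle values for 8 and below for 0, beside 7.49% and 7.67% of all genes. This comparison and the ENZ comparison share the Vehicle tumours.

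Snord118 stood at 21.2, 18.6, 35.8 and 16.1 CPM in ADF+ENZ, where Vehicle had 8.62 to 12.3. Every ADF+ENZ tumour lay above every Vehicle tumour, replicate 3 the most, and the rise was 2.08-fold (1.06, SE 0.25, edgeR adjusted p = 0.014). Snord13 stood at 2.61, 3.12, 4.38 and 2.06 CPM, apart from Vehicle, and rose 2.84-fold (1.504, SE 0.28, adjusted p = 0.0022). Snord55 stood at 0.980, 1.73, 1.53 and 1.17 CPM, also apart (1.74, SE 0.43, adjusted p = 0.014). These 3 passed with each library left out in turn.

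The other 5 were lost in some of those fits. Snora57 stood at 7.43, 8.03, 13.8 and 6.30 CPM, all above Vehicle, and rose 1.77-fold (0.82, SE 0.21, edgeR adjusted p = 0.017); without Vehicle replicate 1 or ADF+ENZ replicate 3 the adjusted p was 0.0505 to 0.074. Scarna17, a Cajal body RNA with no host, stood at 3.35, 3.38, 4.82 and 3.27 CPM, above the 1.49 to 2.82 of Vehicle (0.82, SE 0.24, adjusted p = 0.029). It was lost without Vehicle replicate 2 or 3 or ADF+ENZ replicate 3 (0.074 to 0.097). Snord104 stood at 8.33, 7.17, 8.55 and 6.75 CPM, above Vehicle (0.53, SE 0.15, adjusted p = 0.030), and was lost in 5 fits. Snord49a (1.03, SE 0.33, adjusted p = 0.048) was lost in 13 of 16 and Snord32a in 14. The count of 8 was 3 without ADF+ENZ replicate 3, 4 without Vehicle replicate 3, 5 without Vehicle replicate 1, Vehicle replicate 4 or ADF+ENZ replicate 1, and at most 7. With the no-feature percentage as a covariate it was 4 (Snord55, Snord13, Snord118 and Scarna17). Over all genes, the 1131 called higher became 500 without ADF+ENZ replicate 3, 662 without Vehicle replicate 3 and 673 with the covariate.

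None of the 7 genes that fell in ADF passed in ADF+ENZ against Vehicle. The log2 change of ADF+ENZ against Vehicle was 0.48 (SE 0.21) for Snord17, 0.06 (SE 0.13) for Scarna2, 0.11 (SE 0.13) for Scarna6, -0.32 (SE 0.19) for Snora23, 0.45 (SE 0.21) for Snord15a, 0.26 (SE 0.28) for Snora21 and -0.08 (SE 0.28) for Snora69.

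Between the fasted groups, 13 of the 32 tested genes were higher with enzalutamide and 0 were lower, the highest count of the 6 comparisons. Among all tested genes, 8.72% were higher and 7.54% lower in ADF+ENZ than in ADF. At an unadjusted p under 0.05, 15 of the 32 were higher and 0 lower. DESeq2 called 12 of the 32 higher and 0 lower, and limma-voom 13 and 1. Over all tested genes these tools called 2042 and 2267 higher and 1638 and 2177 lower. The 13 include the 7 genes that were lower in ADF than in Vehicle; both comparisons use the ADF tumours. The others were Snord118, Snord32a, Snora78, Snord13, Snora57 and Snord104. Without Snord32a, which reached the filter's level in no ADF library, 12 of 31 were higher (median 0.61). Over the 32 the median log2 change was 0.61, against -0.02 over all tested genes. Over all 46 genes the values lay apart, with ADF+ENZ above, for 13, and below for 0, beside 8.96% and 9.22% of all genes.

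Snord118 rose most, from 5.60, 7.64, 6.53 and 4.09 CPM in ADF to 21.2, 18.6, 35.8 and 16.1 in ADF+ENZ. The lowest ADF+ENZ tumour was above the highest ADF tumour, and the rise was 3.78-fold (1.92, SE 0.27, edgeR adjusted p = 0.0014). Snord15a went from 3.92, 4.62, 4.09 and 2.94 CPM to 8.74, 9.76, 17.1 and 9.86, apart, a 2.88-fold rise (1.52, SE 0.22, adjusted p = 0.0012). Snord17 went from 48.7, 42.8, 51.6 and 39.9 CPM to 94.9, 139.6, 173 and 82.2, apart, a 2.67-fold rise (1.42, SE 0.21, adjusted p = 0.0021).

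Snora21 rose 2.81-fold, from 0.651 to 1.12 CPM in ADF to 2.94, 2.72, 3.29 and 2.22 in ADF+ENZ (1.49, SE 0.31, edgeR adjusted p = 0.0061). Snora23 rose 2.14-fold to 11.6, 15.9, 17.0 and 12.8 CPM (1.10, SE 0.20, adjusted p = 0.0035), and Scarna6 2.13-fold to 19.9, 27.5, 20.5 and 20.6 CPM (1.09, SE 0.14, adjusted p = 0.00056). In each of these the groups were apart. Scarna2 (0.63, SE 0.14, adjusted p = 0.0068), Snord13 (1.24, SE 0.28, adjusted p = 0.0080), Snora57 (1.05, SE 0.22, adjusted p = 0.0056), Snord104 (0.81, SE 0.16, adjusted p = 0.0045) and Snora69 (1.03, SE 0.31, adjusted p = 0.032) rose without overlap as well. Snora78, in the noncoding host Snhg9 (1.25, SE 0.39, adjusted p = 0.034), rose with overlapping ranges, and those of Snord32a overlapped too.

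The count of 13 ran from 10 to 13 with 1 library left out. Over all genes, the 1652 called higher ran from 672 (without ADF replicate 4) to 1836 (without ENZ replicate 1). Snora78 was lost without ADF replicate 2 or 4 or ADF+ENZ replicate 1 or 3 (edgeR adjusted p 0.068 to 0.13), and Snord32a in 6 fits. The hosts Snx5 (0.01, SE 0.08), Atg16l1 (-0.09, SE 0.09) and Ipo7 (0.22, SE 0.09) did not pass, Rps3 (0.36, SE 0.11, adjusted p = 0.035) and Rpl13a (0.48, SE 0.11, adjusted p = 0.011) rose, and each changed less than its small RNA. With the no-feature percentage as a covariate 0 of the 13 passed, and 0 of all 18946 genes did; the log2 changes were then 1.27 for Snord17, 1.18 for Scarna6, 1.27 for Snora23 and 1.30 for Snord118, but 0.21 for Snora57 and 0.11 for Snora78.

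**Figure D5:**
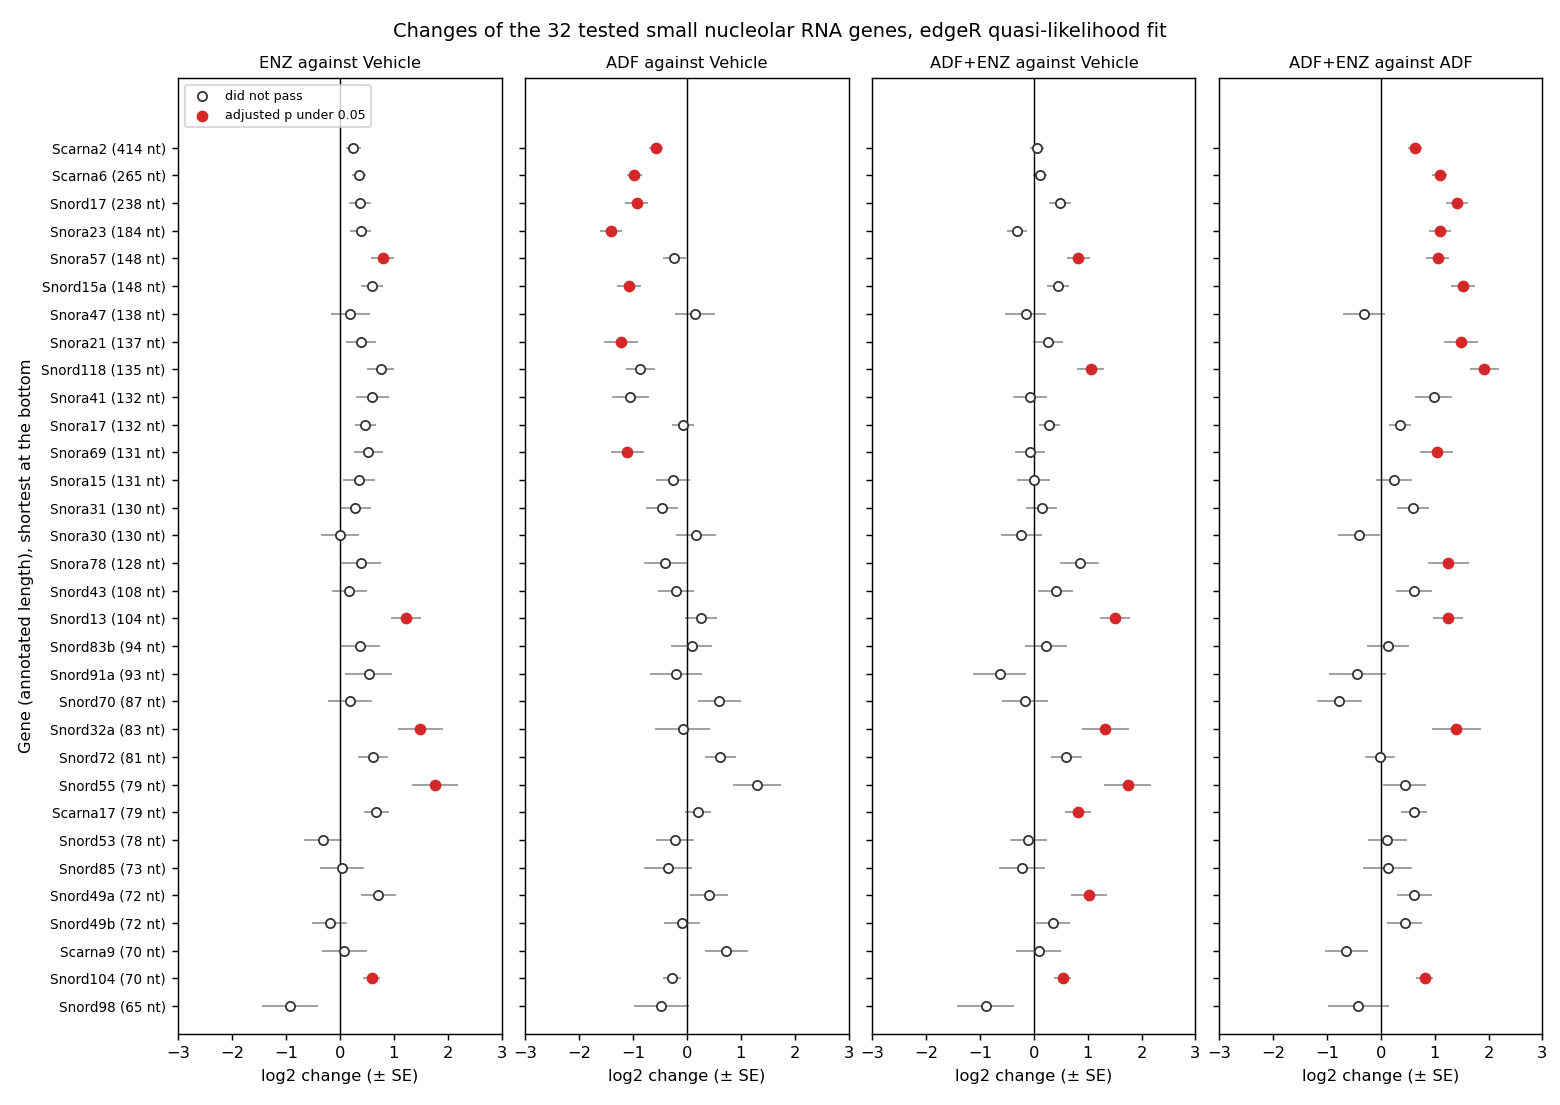
Log2 change with its SE for the 32 tested small nucleolar RNA genes in 4 comparisons, ordered by annotated length with the longest at the top; red points passed edgeR's test at an adjusted p under 0.05 and open points did not. The 7 red points in ADF against Vehicle sit in the upper part at 131 nt or more, and red points in the other 3 panels, all above 0, run over both short and long genes.

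Fasting on top of enzalutamide gave no call in either direction among the 32. Among all tested genes, 0.813% were higher and 0.274% lower in ADF+ENZ than in ENZ by edgeR, and 4 of the 32 had an unadjusted p under 0.05. All 4 were lower. DESeq2 called 1 of the 32 lower, Snora23, with an adjusted p of 0.017, and limma-voom called 0. Over all tested genes these tools called 212 and 79 lower and 481 and 223 higher. Snora23 stood at 29.4, 28.2, 17.7 and 17.6 CPM in ENZ and at 11.6, 15.9, 17.0 and 12.8 in ADF+ENZ, apart by a small margin (-0.70, SE 0.19, edgeR adjusted p = 0.077). The other 2 with the smallest p were Snord91a (-1.17, SE 0.48) and Snora69 (-0.60, SE 0.27). Over all 46 genes the values lay apart, with ADF+ENZ below, for 2 (Snora23 and Snora69) and above for 0, beside 3.44% and 4.36% of all genes.

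The interaction asks whether the change with enzalutamide differed between fasted and fed mice. It passed for 1 of the 32, Scarna6, which rose more with enzalutamide in fasted mice (difference of log2 changes 0.74, SE 0.19, edgeR adjusted p = 0.043). Among all tested genes, 2.18% had a higher and 0.918% a lower interaction. At an unadjusted p under 0.05, 6 of the 32 had a higher and 1 a lower interaction. DESeq2 called 4 of the 32 higher and limma-voom 0, and both called 0 lower. Over all tested genes these tools called 946 and 569 higher and 417 and 301 lower. Leaving out 1 library at a time ended edgeR's call of Scarna6 10 times in 16 (adjusted p 0.051 to 0.098). Snord17 (1.05, SE 0.29, adjusted p = 0.063), Snord118 (1.16, SE 0.36, adjusted p = 0.087) and Snord15a (0.92, SE 0.30, adjusted p = 0.091) did not pass. For Snord13 (0.02, SE 0.42), Snord104 (0.23, SE 0.22) and Snora57 (0.26, SE 0.30) it did not pass either.

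Of the 32 tested genes, 16 passed in at least 1 comparison, among them Snord32a, whose calls depend on the filter, and 16 in none. The latter are Snora17, Snora31, Snora41, Snord43, Snord72, Snord83b, Scarna9, Snord53, Snora30, Snord49b, Snora15, Snora47, Snord70, Snord91a, Snord85 and Snord98, with 116 to 859 counts and 65 to 138 nt. Snora41, an H/ACA RNA of the translation elongation factor gene Eef1b2, came closest. It stood at 1.43, 1.54, 1.57 and 1.66 CPM in Vehicle and at 0.72, 0.948, 0.63 and 0.645 in ADF, with no overlap (-1.05, SE 0.34, edgeR adjusted p = 0.057). Its host fell by 0.40 on the log2 scale (edgeR adjusted p = 0.014). Snora17 was the best counted of them, at 2.63 to 3.65 CPM in Vehicle, 3.57 to 5.37 in ENZ and 2.31 to 3.58 in ADF; its largest change was 0.47 (SE 0.19) in ENZ.

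Some members share a host and can be set side by side. Snord49a and Snord49b are both 72 nt long and lie in 2410006H16Rik. Against Vehicle they changed in ADF+ENZ by 1.03 (SE 0.33) and 0.35 (SE 0.32), and only the first passed; the difference between them was not tested. Snord43 and Snord83b in Rpl3 changed by 0.40 (SE 0.32) and 0.22 (SE 0.39), and neither passed in any comparison. The third RNA of 2410006H16Rik, Snord65, and the partners of Snord70 in Nop58 (Snord11) and of Snord53 in Wdr43 (Snord92) had too few counts to test.

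The 14 untested genes had group means between 0.111 and 0.650 CPM. The median of these means was 0.288 CPM in ADF, close to 0.290 in Vehicle, and 0.352 in ENZ, close to 0.358 in ADF+ENZ. The mean was lower in ADF than in Vehicle for 6 of the 14 and higher in ADF+ENZ than in ADF for 9. At these counts single genes were not tested.

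Genes of the proteins that build and carry these RNAs were given as fixed lists. In ADF against Vehicle none of the 4 box C/D core proteins, the 4 H/ACA core proteins, the 14 assembly and Cajal body factors or the 17 trimming and exosome factors passed; edgeR's median log2 changes were 0.00, -0.09, -0.05 and 0.01. Fbl, the methylating enzyme fibrillarin, changed by 0.05 (SE 0.11) and Dkc1, the pseudouridine synthase dyskerin, by 0.11 (SE 0.10). In ENZ against Vehicle none of these 39 passed in edgeR either. Beside these counts, 4.05% of all tested genes were higher and 4.96% lower in ADF, and 1.81% and 3.62% in ENZ. At an unadjusted p under 0.05, 0 of the 39 were higher and 2 lower in ADF, and 11 were higher and 1 lower in ENZ. No share of all genes at that unadjusted limit was counted. DESeq2 called 1 lower in ADF and 0 in ENZ, and limma-voom 0 in ADF and 2 higher in ENZ.

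In ADF+ENZ some did. Against Vehicle, 1 of the 4 H/ACA proteins rose (Nhp2, 0.49, edgeR adjusted p = 0.018), 0 of the 4 C/D proteins, 1 of 14 assembly factors (Nolc1, a nucleolar and Cajal body chaperone, 0.33, adjusted p = 0.045) and 2 of 17 trimming factors (the exosome subunits Exosc9, 0.49, and Exosc4, 0.43); none fell. That is 4 of 39, beside 5.97% of all tested genes higher. Against ADF, Nhp2 (0.54), the C/D protein Snu13 (0.40), Smn1 (0.37), Exosc1 (0.41), Exosc4 (0.38), Exosc9 (0.35) and the lariat debranching enzyme Dbr1 (0.34) rose, and the C/D assembly factor Znhit6 fell by 0.35 on the log2 scale, or 7 higher and 1 lower of 39 beside 8.72% and 7.54% of all tested genes. Of these, Nhp2 against ADF and Exosc9 against Vehicle passed with any 1 library left out, and the others were lost in 2 to 10 fits. The medians in ADF+ENZ against ADF were 0.27, 0.13, 0.23 and 0.17 for the 4 lists in the order above, beside -0.02 for all tested genes.

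Long noncoding genes that host small nucleolar RNAs, most of them known by their snoRNA host (Snhg) symbols, had some calls in each group. To set beside these counts, the shares of all tested genes called higher and lower were 4.05% and 4.96% in ADF, 1.81% and 3.62% in ENZ and 5.97% and 6.53% in ADF+ENZ, each set against Vehicle; between the fasted groups they were 8.72% and 7.54%. Of 19 tested, 2 were higher in ADF than in Vehicle and 0 lower: Gas5 (0.29, edgeR adjusted p = 0.046) and Snhg14 (1.04, adjusted p = 0.014). The median was 0.22. In ENZ 3 rose (Snhg1, 0.50; Snhg5, 0.41; Gas5, 0.30) and in ADF+ENZ against Vehicle 5 did (Snhg9, 1.30; Zfas1, 0.73; Snhg5, 0.69; Snhg1, 0.52; Gas5, 0.34), with none lower. Against ADF, Zfas1 (0.46) and Snhg5 (0.36) rose and Mirg fell by 1.54 on the log2 scale. Gas5 lost its call in 14 of 16 fits for ENZ and 10 of 16 for ADF, while Snhg1 in ENZ and Snhg14 in ADF kept theirs in all 16.

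Spliced transcripts of such hosts are known targets of nonsense-mediated decay, so its 10 factors were listed too; the same shares of all genes apply. In ADF 1 of 10 was higher, Smg6, an endonuclease (0.28, edgeR adjusted p = 0.019). In ENZ Smg5 (0.42) and Smg6 (0.34) rose and Smg1, a kinase, fell by 0.44 on the log2 scale. In ADF+ENZ Smg5 (0.36) and Smg6 (0.49) rose against Vehicle, and Smg8 rose (0.51) and Upf3b fell by 0.50 on the log2 scale against ADF.

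Other small structured RNAs, whose symbols do not start with Snord, Snora or Scarna, were listed as well. They are of several kinds, among them spliceosomal RNAs and Y RNAs. Of 24 listed, 12 were in the table and 4 passed the filter. Rnu12, the U12 RNA of the minor spliceosome, ran from 28.9 to 44.3 CPM in ADF, 93.1 to 109 in Vehicle, 70.3 to 168 in ADF+ENZ and 99.4 to 203 in ENZ. ADF lay below every other group. It fell by 1.49 on the log2 scale in ADF against Vehicle (SE 0.26, edgeR adjusted p = 0.0051) and rose by 1.55 in ADF+ENZ against ADF (SE 0.27, adjusted p = 0.0039), in both with any 1 library left out. The Y RNAs Rny3 (19.2 to 41.3 CPM in ADF, 56.8 to 67.4 in Vehicle) and Rny1 (33.7 to 51.2 and 54.5 to 81.8) did not pass in ADF against Vehicle (-1.09, SE 0.38, and -0.62, SE 0.40). Both rose in ADF+ENZ against ADF, by 1.85 (SE 0.39, adjusted p = 0.0099) and 1.66 (SE 0.41, adjusted p = 0.019), Rny1 not without ADF replicate 4 (0.064). Rnu73b did not pass in any comparison.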

How the data were processed

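RNA was measured by paired-end sequencing in 16 tumours. The deposited file holds raw read counts per gene, not normalized by the authors. Per the submitters' processing notes the tools were Trim Galore, HISAT2, featureCounts and DESeq2 and the builds mm39 and GRCh38, with no versions or roles given. The table ends with 5 summary entries of unassigned reads, which stayed out of library sizes and tests. IDs with no symbol, not used as members, held 3.51% of gene counts.

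Gene IDs come from the file, which holds no symbols, and symbols were assigned by ID from GENCODE gene names. Lengths, hosts and sequences come from GENCODE M21 (GRCm38), looked up by ID, and no coordinates are printed. Counts were fitted for all genes in 1 model of the 4 groups with edgeR 4.0.16 (TMM factors, quasi-likelihood test, R 4.3.3), after its expression filter (minimum count 10, total 15, about 0.634 CPM in enough libraries), which left 18946 genes. Benjamini-Hochberg adjustment ran over all of them, with 0.05 as the limit for a call. Contrasts were ENZ, ADF and ADF+ENZ against Vehicle, ADF+ENZ against ENZ and against ADF, and the interaction. Small RNA to host ratios used CPM with 0.1 added. The members, lists and rules were chosen with earlier results of these data known. Genes named are up to 10 that passed per direction and comparison (otherwise the 3 with the smallest p), the 10 highest per kilobase, 5 on each side of the count threshold, the hosts, and up to 4 per list. Snora41, Snora17 and the members of shared hosts were also named after their values were seen, as were values of genes that did not pass, given for contrast.

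Depth ran from 10072489 to 25505655 gene counts; a library with 0 counts of a gene allows up to 3. Replicate numbers are the order of the labels and pair nothing. Replicates of a group differed by more than sampling noise (chi-square per degree of freedom 5.79 to 38.6). The alternatives were DESeq2 1.42.0, its size factors used in edgeR, limma 3.58.1 (voom, with quality weights), no filter, at least 1 CPM in 4 libraries, TMM from protein-coding genes, the no-feature percentage as a covariate, only the groups compared, and each library left out. The fit was tested on simulated data. A few marker, host and sequence values are not reported here. Figures used Python 3.11.15 and matplotlib 3.10.9.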

Additional observations from a re-analysis of the deposited data

Results flagged for a closer look

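The level of 1 library stood apart from the other 3 of its group, by Dixon's criterion, in 6 of the 104 sets of 4 values examined; chance gives about 1 in 20. Scarna6 in ADF+ENZ stood at 27.5 CPM in replicate 2 and at 19.9 to 20.6 in the others. In ADF+ENZ replicate 3 Snord15a stood at 17.1 CPM, against 8.74 to 9.86, and Scarna17 at 4.82, against 3.27 to 3.38. Snora21 stood at 0.651 CPM in ADF replicate 2 and at 1.08 to 1.12 in the others. Snora69 stood at 2.59 CPM in ENZ replicate 1 and at 1.44 to 1.57 in the others. The summed level of the 23 members with under 200 counts was 10.3 CPM in 1 ADF library and 9.11 to 9.29 in the other 3.

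Of the 32 tested genes, Scarna6 alone passed for the interaction, at 0.74 on the log2 scale by edgeR's test (adjusted p = 0.043). Among all tested genes 2.18% had a higher interaction. The call of Scarna6 was lost in 10 of 16 fits with 1 library left out. It was also lost with limma-voom, with TMM from protein-coding genes and with the no-feature percentage as a covariate.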

How the results depend on the processing

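No paired analysis was possible because the labels give the groups no shared replicate numbers. Under the other settings the counts of members that passed moved by over 1.5 times as follows, and the cause was not tested. In ENZ against Vehicle the 5 higher became 3 with no filter and 3 with only the groups compared, where the 342 of all genes became 261 and 227. In ADF against Vehicle the 7 lower became 0 with the no-feature percentage as a covariate, where the 940 of all genes became 5. In ADF+ENZ against Vehicle the 8 higher became 5 with no filter, 4 with the covariate and 5 with only the groups compared. The 1131 of all genes became 784, 673 and 755 in the same order. In ADF+ENZ against ENZ the 0 lower became 1 with DESeq2, where the 52 of all genes became 212. In ADF+ENZ against ADF the 13 higher became 0 with the covariate, and the 0 lower became 1 with limma-voom. Over all genes the 1652 higher became 0 and the 1429 lower became 2177. The 1 higher interaction became 4 with DESeq2 and 0 with limma-voom, with TMM from protein-coding genes and with the covariate. For all genes 413 became 946, 569, 255 and 0 in the same order. With 1 library left out, the counts ran from 0 to 7 (higher in ENZ), 3 to 9 (lower in ADF), 0 to 1 (higher in ADF), 3 to 7 (higher in ADF+ENZ against Vehicle), 10 to 13 (higher in ADF+ENZ against ADF) and 0 to 2 (higher interaction). With the covariate, 4 named changes in ADF+ENZ against ADF turned negative: Snu13 (-0.047), Smn1 (-0.062), Exosc1 (-0.11) and Smg8 (-0.061). No other named change that passed turned direction under any setting run. Depth limits the low members: 14 with at most 113 counts over the 16 libraries were not tested.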

Other observations

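Genes annotated as small nucleolar RNAs under other symbols, most of them predicted gene models, were described as a set added after the data were seen. Of 987 in the table, 149 held at least 40 counts and 56 passed the filter. In ADF against Vehicle 10 of the 56 were lower and 3 higher by edgeR, beside 4.96% and 4.05% of all tested genes, and the median log2 change was -0.03. In ADF+ENZ against ADF 13 were higher and 3 lower, beside 8.72% and 7.54% of all tested genes, with a median of 0.40. In ENZ against Vehicle 1 was higher and 0 lower, beside 1.81% and 3.62%. In ADF+ENZ against Vehicle 4 were higher and 1 lower, beside 5.97% and 6.53%.

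The best counted of them, Gm26448, held 7074 counts. It ran from 25.6 to 29.9 CPM in Vehicle, 32.1 to 41.8 in ENZ, 10.4 to 17.2 in ADF and 24.5 to 43.3 in ADF+ENZ. All ADF tumours lay below all others. It fell by 1.02 on the log2 scale in ADF against Vehicle (SE 0.16, edgeR adjusted p = 0.0013) and rose by 1.25 in ADF+ENZ against ADF (edgeR adjusted p = 0.00068), and its interaction was 0.88 (edgeR adjusted p = 0.041).

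Other annotated classes of small RNA genes, also added after the data were seen, had the following counts by edgeR. Of 34 tested genes of the snRNA class, 2 were higher and 5 lower in ADF against Vehicle (median log2 change -0.05), and 5 higher and 4 lower in ADF+ENZ against ADF, with a median of -0.50. Of 31 tested genes of the miRNA class, whose reads here may come from precursor or host transcripts, 2 were higher and 0 lower in ADF against Vehicle (median 0.28), and 1 higher and 3 lower in ADF+ENZ against ADF, with a median of -0.47. The share of all tested genes called in ADF+ENZ against ADF was 8.72% higher and 7.54% lower, and in ADF against Vehicle 4.05% higher and 4.96% lower.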
